A study of Mus musculus with 31 samples.

Results

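Gene expression was compared between the gastrocnemius muscles of female mice lacking MuRF1 and female wild-type mice, all kept on chow. The comparison holds 8 of the 31 RNA-sequencing libraries of the series, 4 from each genotype. Each library was grouped by the animal number in its description, through the title that carries this number, whatever its own title says. The study crossed MuRF1 genotype with sex and diet in mouse calf muscle. Both groups used here were female, ate standard chow ad libitum from weaning and were sampled at 30 weeks of age. Other mice of the series moved to a diet with 45% fat from lard at 8 weeks. The labels give the knockout only as a MuRF1 -/- genotype and name neither the strain, the design of the allele nor the hour of tissue collection.

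MuRF1, encoded by Trim63, is a RING-finger ubiquitin ligase of striated muscle that sits on the sarcomere and marks muscle proteins for the proteasome. Its mRNA is induced in muscle wasting, for instance after denervation or glucocorticoid treatment. Muscle also runs a circadian clock, in which the activators BMAL1 (Arntl) and CLOCK drive the Period and Cryptochrome repressors and a set of output transcription factors such as DBP, TEF and HLF.

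In 19 of the 31 records the animal number of the title differed from that of the description, and 1 described animal appeared in no title and was put in no group. Of the 30 grouped libraries, 4 carried a title of another group. Among the 8 libraries these were wild type replicate 4, whose own title names a female knockout on chow, and knockout replicate 4, whose own title names a female wild type on high fat. CPM is a count scaled by the total of its library, with that total adjusted by TMM scaling. Trim63 ran from 107 to 271 CPM in the 16 libraries placed as wild type. In the 14 placed as knockout it ran from 0.487 to 7.75 CPM. Ddx3y, a Y-linked gene, ran from 0 to 0.697 CPM in females and from 34.7 to 55.7 CPM in males, so both genes followed the described animal in all 30 libraries. Calls lost without either library are given with the omissions of single libraries.

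The 8 libraries held 9981063 to 13796228 counts, with 10.2% to 12.9% from mitochondrial DNA and 17996 to 18829 genes detected. Neither the total count (p = 0.857, exact permutation test, two-sided) nor the mitochondrial share (p = 0.514, exact permutation test, two-sided) separated the genotypes. A count of 3 was worth 0.217 to 0.301 CPM by the library totals alone, without TMM scaling. The fibre genes Acta1 (24039.9 to 28485 CPM) and Myh4 (41690.0 to 55489.6 CPM) marked every library as fast skeletal muscle. The skin keratins Krt5 and Krt14 were at 0 in 5 libraries and present in wild type 3, knockout 1 and knockout 3, with Krt5 at 6.18, 8.29 and 11.9 CPM. The neutrophil gene S100a8 stood at 23.3 CPM in wild type 4 and 25.3 CPM in knockout 1, against 0.135 to 0.601 CPM in the other 6. Their part in the results below was not tested beyond leaving those libraries out.

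Few mRNAs were called between knockout and wild-type muscle in females on chow. Of 14024 genes tested, 13 were called (0.0927%) by the edgeR quasi-likelihood test at a Benjamini-Hochberg adjusted p under 0.05. The 3 that rose (0.0214%) were Xlr3a, Per2 and Hlf. The 10 that fell (0.0713%) were Trim63, E2f2, Adgrb2, Paqr7, Hmgn2, Ndufs5, Pafah2, Hdac1, Nipal3 and Ppp1r3c, and the first 9 of these lie on chromosome 4 within 25 Mb of Trim63. The 2 groups did not overlap for any of the 13, where 4.36% of all genes tested had no overlap. At an unadjusted p under 0.05 there were 681 genes (4.86%). The median log2 fold change over all genes was -0.0022. On data simulated from these libraries, 100 genes were given a 1.5-fold change and 100 others a 2-fold change. All of these had a mean above 2 CPM. The 1.5-fold change was called in 64% of the genes given one and the 2-fold change in 85%. With that many changed genes the adjustment is more lenient than with 13 calls. The shares therefore do not measure how many changes were missed here.

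**Figure D1:**
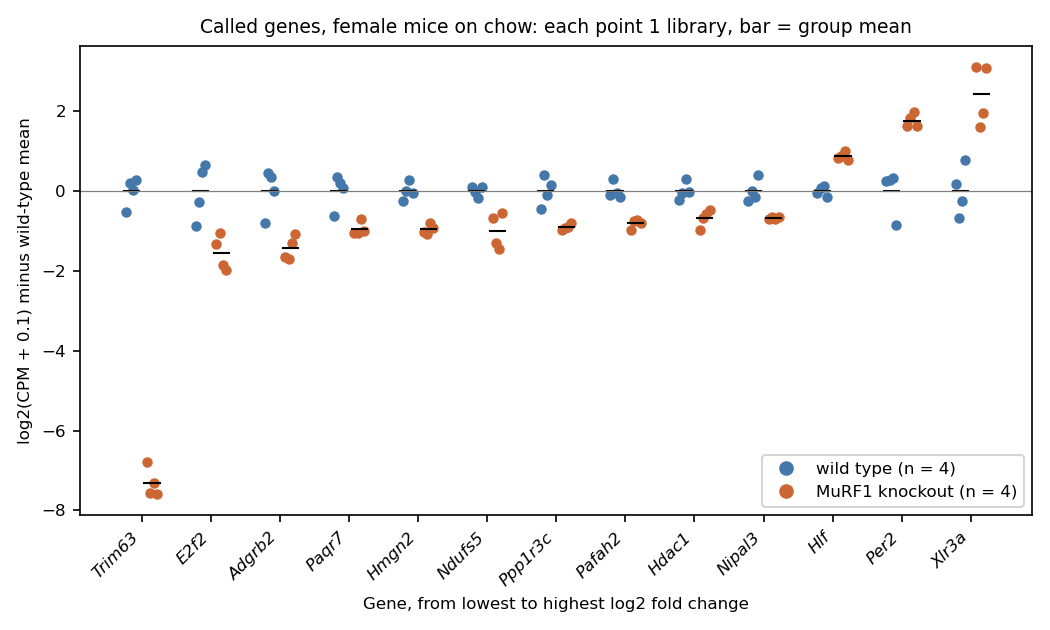
Level of the 13 called genes in each female chow library, as log2(CPM + 0.1) minus the wild-type mean of the gene; blue points are wild type, orange points are MuRF1 knockout, and black bars are group means. No gene shows overlap between the groups, and Trim63 lies lowest. Wild type replicate 1 is the lowest wild-type point for genes that include Trim63, E2f2, Adgrb2, Paqr7, Hmgn2 and Ppp1r3c.

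Trim63 itself (ENSMUSG00000028834, chromosome 4, 134315120 to 134329629, plus strand, mm10) was measured first, as the check of genotype. It stood at 121, 201, 178 and 212 CPM in wild type replicates 1 to 4 and at 1.47, 0.826, 0.987 and 0.81 CPM in the knockouts. Wild type 1 was the lowest of its group, and the groups lay far apart. The log2 fold change was -7.44 ± 0.49 (SE; edgeR, adjusted p = 2.27e-09). It was -7.34 without wild type 4 (edgeR, adjusted p = 1.34e-08) and -7.33 without knockout 4 (edgeR, adjusted p = 1.42e-07). The labels do not give the deleted part of the gene, so the remaining counts cannot be placed within it. With libraries grouped by their own titles instead, the value was -1.25 and was not called (edgeR, adjusted p = 0.998).

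The genes that fell beside Trim63 act in the nucleus, in membranes and in lipid handling. Hmgn2 (chromosome 4, 133964738 to 133968650), which encodes a nucleosome-binding protein, stood at 15, 17.7, 21.6 and 17.2 CPM in wild type and at 8.68, 8.41, 10.1 and 9.31 CPM in knockout. Every knockout lay under the lowest wild type, and the log2 fold change was -0.97 ± 0.14 (edgeR, adjusted p = 0.000546). E2f2 (136172394 to 136196057), a transcription factor gene of the cell cycle, held 2.57, 3.99, 6.79 and 7.66 CPM in wild type and 1.86, 2.25, 1.27 and 1.15 CPM in knockout. Wild types 1 and 2 lay closest to the knockouts, and the difference was -1.68 ± 0.29 on the log2 scale (edgeR, adjusted p = 0.0107). Hdac1 (129516104 to 129542713), a histone deacetylase gene, went from 11.5 ± 1.8 CPM to 7.14 ± 1.04 CPM (SD, n = 4 each; edgeR, adjusted p = 0.0188). Its libraries ran from 9.76 to 14 CPM in wild type and from 5.73 to 8.17 CPM in knockout. Both Hmgn2 and Hdac1 have several near copies elsewhere, among them Gm10282 (99.3% identical over 1151 bases) and Gm10093 (99.4% over 1444 bases). Gm10282 and Gm10093 were low, at 0.57 to 1.18 CPM and 0.592 to 2.17 CPM over the 8 libraries. Other copies of Hmgn2 include Hmgn2-ps1 (100% over 279 bases). How the counting dealt with reads that match several copies is not given, which makes the Hmgn2 and Hdac1 values uncertain.

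Pafah2, Paqr7, Nipal3 and Adgrb2 complete the decreases close to Trim63. Pafah2 (134396320 to 134427413) encodes an acetylhydrolase of platelet-activating factor and held 5.77, 7.69, 6.05 and 5.55 CPM in wild type against 3.1, 3.68, 3.73 and 3.51 CPM in knockout. The knockouts were close together and all lower, with a log2 fold change of -0.84 ± 0.16 (edgeR, adjusted p = 0.0193). Paqr7 (134496697 to 134510235), a membrane progestin receptor gene, stood at 4.35, 8.73, 7.79 and 7.18 CPM in wild type and 3.25, 3.23, 4.16 and 3.37 CPM in knockout. Wild type 1 lay just above knockout 3, and the mean went from 7.01 ± 1.89 to 3.5 ± 0.44 CPM (SD, n = 4 each; edgeR, adjusted p = 0.0493). Nipal3 (135445420 to 135495038), from a family of magnesium transporters, ran from 15 to 23.4 CPM in wild type and from 10.9 to 11.3 CPM in knockout (log2 -0.69 ± 0.14, edgeR, adjusted p = 0.0231). It overlaps Stpg1 on the other strand, and since the strand setting of the counting is not given, reads of the pair cannot be told apart. Adgrb2 (129984870 to 130022633), an adhesion G protein-coupled receptor gene, held 1.35, 3.33, 3.09 and 2.39 CPM in wild type and 0.697, 0.676, 0.916 and 1.08 CPM in knockout (log2 -1.58 ± 0.30, edgeR, adjusted p = 0.0188).

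The called genes were concentrated on chromosome 4 around Trim63. Within 2 Mb of Trim63, which is not counted itself, 5 of 78 genes were called (6.41%). Between 2 and 10 Mb it was 2 of 168 (1.19%), and between 10 and 25 Mb 1 of 243 (0.412%). On the rest of chromosome 4 the count was 0 of 379 by edgeR, with 17 at an unadjusted p under 0.05, and on other chromosomes 4 of 13043 (0.0307%). The groups had no overlap for 17 of the 78 nearest genes (21.8%), 10 of the 168 (5.95%), 27 of the 243 (11.1%), 15 of the 379 (3.96%) and 538 of the 13043 (4.12%). Within 2 Mb, 13 of the 17 were lower in knockout, and at 10 to 25 Mb 15 of the 27 were higher. Neighbouring genes are not independent of each other, so the shares are given without a test. The 10th gene by p within 25 Mb was Masp2 (148602554 to 148615499), which encodes a complement protease, at 0.0957 to 0.356 CPM in wild type and 0.697 to 1.15 CPM in knockout (log2 1.98 ± 0.42, edgeR, adjusted p = 0.0506). Its wild-type levels lay around the value of 3 counts.

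**Figure D2:**
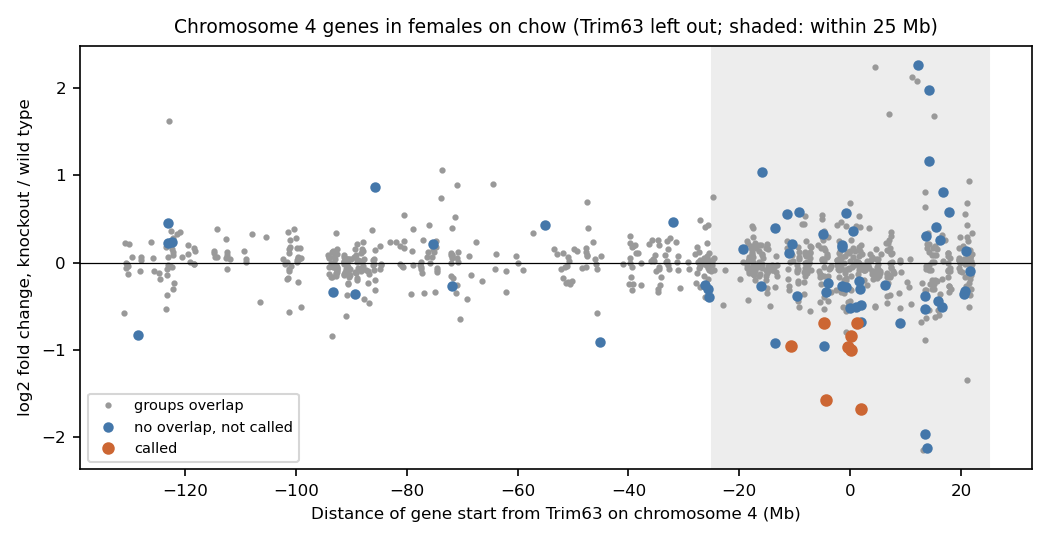
Log2 fold change of each tested chromosome 4 gene in females on chow against its distance from Trim63 in Mb. Distances run between gene midpoints, although the axis label names the gene start. Trim63 is left out and the stretch within 25 Mb is shaded. Orange points were called, blue points had no overlap between the groups without being called, and grey points overlapped. All 8 called points lie inside the shaded stretch and below 0.

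Ndufs5, which encodes a subunit of complex I, has a near-identical processed pseudogene, BC002163, on another chromosome. Ndufs5 (chromosome 4, 123712710 to 123718202) lies 10.61 Mb from Trim63 and BC002163 on chromosome 16 (42955631 to 42955949), which was chosen after its values were seen. The annotated bases of BC002163 and the coding bases of Ndufs5 they align to, from the GENCODE M21 transcripts, differ at 2 of 319 positions (99.4% identical), T81C and A105G, counted from 1 at the first coding base of Ndufs5, with its base first. The first 300 bases of each are shown for how close the copies are, with these positions in capitals.
Ndufs5: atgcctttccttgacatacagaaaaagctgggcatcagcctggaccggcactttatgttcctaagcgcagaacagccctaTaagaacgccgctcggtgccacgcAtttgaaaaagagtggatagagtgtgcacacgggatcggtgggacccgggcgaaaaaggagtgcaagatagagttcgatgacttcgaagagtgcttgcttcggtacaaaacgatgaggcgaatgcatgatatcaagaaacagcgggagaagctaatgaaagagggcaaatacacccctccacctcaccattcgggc
BC002163: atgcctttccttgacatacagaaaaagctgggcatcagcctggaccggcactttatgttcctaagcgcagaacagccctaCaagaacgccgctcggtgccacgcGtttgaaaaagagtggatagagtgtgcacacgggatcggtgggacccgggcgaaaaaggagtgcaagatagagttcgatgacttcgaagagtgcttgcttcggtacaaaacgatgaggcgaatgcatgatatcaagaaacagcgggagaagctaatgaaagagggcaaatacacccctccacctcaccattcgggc
Ndufs5 stood at 92.8, 86.2, 77.9 and 93.3 CPM in wild type and at 54.8, 35.2, 31.7 and 59.1 CPM in knockout. All knockouts were lower, with a log2 fold change of -0.95 ± 0.17 (edgeR, adjusted p = 0.0107). BC002163 stood at 3.14, 2.74, 2.82 and 2.68 CPM in wild type and at 44.2, 87.4, 84.9 and 46.4 CPM in knockout. Knockouts 2 and 3 were the lowest for Ndufs5 and the highest for BC002163. The BC002163 value was 4.52 ± 1.16 and was not called by edgeR (adjusted p = 0.202), while DESeq2 called it (adjusted p = 0.00384). The sources used here do not say how the authors' counting dealt with reads that match both copies, which makes both values uncertain.

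Xlr3a, a lymphocyte-regulated gene of the X chromosome (73086293 to 73097095), had the largest increase among the genes called by edgeR. It held 0.214, 0.074, 0.134 and 0.383 CPM in wild type and 2.32, 0.751, 0.987 and 2.29 CPM in knockout. Wild-type levels lay around the value of 3 counts, so the log2 fold change of 3.00 ± 0.54 (edgeR, adjusted p = 0.0107) depends on few reads. Its near copy Xlr3b (98% identical over 3785 bases), chosen after its values were seen, ran from 0.356 to 2.51 CPM in wild type and from 2.87 to 3.78 CPM in knockout (edgeR, adjusted p = 0.834). In males on chow Xlr3a was 1.1 ± 0.719 CPM in wild type and 0.915 ± 0.267 CPM in knockout (SD, n = 4 each).

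Ppp1r3c, which encodes the glycogen-targeting subunit PTG of protein phosphatase 1, was the only called decrease away from chromosome 4 (chromosome 19, 36731731 to 36736653). It stood at 318, 574, 405 and 484 CPM in wild type and at 219.7, 227, 231 and 251 CPM in knockout. The knockouts were tightly grouped below the lowest wild type, with a log2 fold change of -0.94 ± 0.17 (edgeR, adjusted p = 0.0107). In males on chow the levels were 714 ± 129 and 756 ± 173 CPM (SD, n = 4 each) in wild type and knockout. In females on high fat they were 473 ± 94.9 CPM (SD, n = 4) and 627 ± 80 CPM (SD, n = 3). The difference between the diets in the genotype effect was itself called, at -1.35 ± 0.25 on the log2 scale (edgeR, adjusted p = 0.0482).

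Among clock genes Per2 and Hlf rose by edgeR, and others had no overlap between the groups without a call. DESeq2, which called 32 of 14024 genes in all, called 2 core clock genes, Arntl and Per2, and 2 output genes, Hlf and Usp2. EdgeR on the 8 libraries alone called 6 core and 4 output genes, and 36 of 13260 genes in all. Of 17 core clock genes 1 was called by edgeR and 9 had no overlap, 6 higher and 3 lower, against 2.25% and 2.1% of all genes tested. Of 12 clock-output genes 1 was called and 7 had no overlap, 6 higher and 1 lower. The median log2 fold changes were 0.15 and 0.32, beside -0.0022 over all genes. Per2 (chromosome 1, 91415982 to 91459324), a repressor of the loop, stood at 7.13, 7.32, 7.59 and 3.25 CPM in wild type and at 18.8, 21.4, 23.9 and 18.8 CPM in knockout. Wild type 4 was the lowest, every knockout was above every wild type, and the log2 fold change was 1.69 ± 0.34 (edgeR, adjusted p = 0.0433). Hlf (chromosome 11, 90336536 to 90390895), which encodes a PAR bZIP factor under clock control, rose from 11.9, 12.9, 13.3 and 11 CPM to 21.9, 22.5, 24.7 and 20.9 CPM (log2 0.87 ± 0.16, edgeR, adjusted p = 0.0107).

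Among core clock genes without overlap, the activators Arntl, Clock and Npas2 were lower and Per1, Per2, Per3, Cry2, Ciart and Nr1d2 were higher, of which edgeR called Per2. The other 8 core genes overlapped between the groups, 5 with positive and 3 with negative values, among them the repressor genes Cry1 (-0.25 ± 0.13) and Nr1d1 (-0.29 ± 0.26). Arntl held 21.7, 33.6, 30.4 and 31.6 CPM in wild type and 10.2, 9.39, 9.65 and 12.4 CPM in knockout. Every knockout was below the lowest wild type, but the value of -1.49 ± 0.37 was not called by edgeR (adjusted p = 0.191), while DESeq2 called it (adjusted p = 0.036). Npas2, the paralogue of CLOCK, held 1.07, 3.03, 3.29 and 1.24 CPM in wild type and 0.465, 0.3, 0.211 and 0.337 CPM in knockout (log2 -2.71 ± 0.64, edgeR, adjusted p = 0.13). Its knockout levels lay around the value of 3 counts, so this value depends on few reads. Clock went from 46.1 ± 4.1 to 34.5 ± 2.86 CPM (SD, n = 4 each), also without overlap. On the other side, Per3 went from 29.8 ± 4.72 to 52.3 ± 0.652 CPM, Per1 from 32.1 ± 8.31 to 54.9 ± 8.53 CPM and Cry2 from 43.2 ± 5.87 to 59.5 ± 4.5 CPM (SD, n = 4 each). Per3 lies on chromosome 4 within 25 Mb of Trim63, where 11% of genes had no overlap, against 4.12% on other chromosomes. The repressor gene Ciart stood at 5.13, 2.29, 2.75 and 3.06 CPM in wild type and at 11.9, 8.11, 8.88 and 13.4 CPM in knockout. Nr1d2, a nuclear receptor gene of the loop, went from 108 ± 13.7 to 150.2 ± 5.19 CPM. None of Clock, Per1, Per3, Cry2, Ciart and Nr1d2 was called by edgeR (adjusted p from 0.189 for Per3 to 0.933 for Per1), and each had no overlap.

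Output genes also lay on both sides. The PAR bZIP gene Dbp held 66, 38.2, 45.5 and 31.7 CPM in wild type and 94.8, 96.5, 89.3 and 104 CPM in knockout, and Tef ran from 298 to 365 CPM and from 373 to 398 CPM. Nfil3, whose product opposes the PAR bZIP factors at the same sites, held 13.8, 25.1, 19.6 and 22.7 CPM in wild type and 12, 12.6, 11.2 and 10.5 CPM in knockout. Neither Dbp (edgeR, adjusted p = 1) nor Nfil3 (edgeR, adjusted p = 0.79) was called, and neither overlapped between groups. Usp2, a deubiquitinase gene with a daily rhythm in many tissues, stood at 124, 94.5, 96.2 and 95 CPM in wild type and at 167, 156, 151 and 169 CPM in knockout (log2 0.65 ± 0.16, edgeR, adjusted p = 0.13; DESeq2, adjusted p = 0.0362). Tspan4 ran from 5.71 to 8.81 CPM and from 9.92 to 12 CPM. Tcap, the gene of the titin cap protein, ran from 979.8 to 1409 CPM and from 1531 to 1829 CPM. The summed level of the 12 output genes was 1937 to 2374 CPM in wild type and 2579.7 to 2815 CPM in knockout.

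The same clock genes were set beside the other genotype comparisons, which use other libraries. In males on chow Per2 was 1.49 ± 0.34 (edgeR, adjusted p = 0.0105) and Arntl -1.37 ± 0.36 (edgeR, adjusted p = 0.0254), and 8 of the 17 core clock genes were called there, where 6.95% of all genes were. In females on high fat Per2 was -0.40 ± 0.42 and Arntl 0.43 ± 0.38, and 0 of the 17 were called by edgeR, where 0.0713% of all genes were. The difference between diets in the genotype effect was 2.09 ± 0.54 for Per2 (edgeR, unadjusted p = 0.000699, adjusted p = 0.397) and -1.92 ± 0.53 for Arntl (edgeR, unadjusted p = 0.00141, adjusted p = 0.533), and neither was called. A difference in the hour of collection between the groups was not tested, since the labels give no hour, and it cannot be told apart from genotype.

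**Figure D3:**
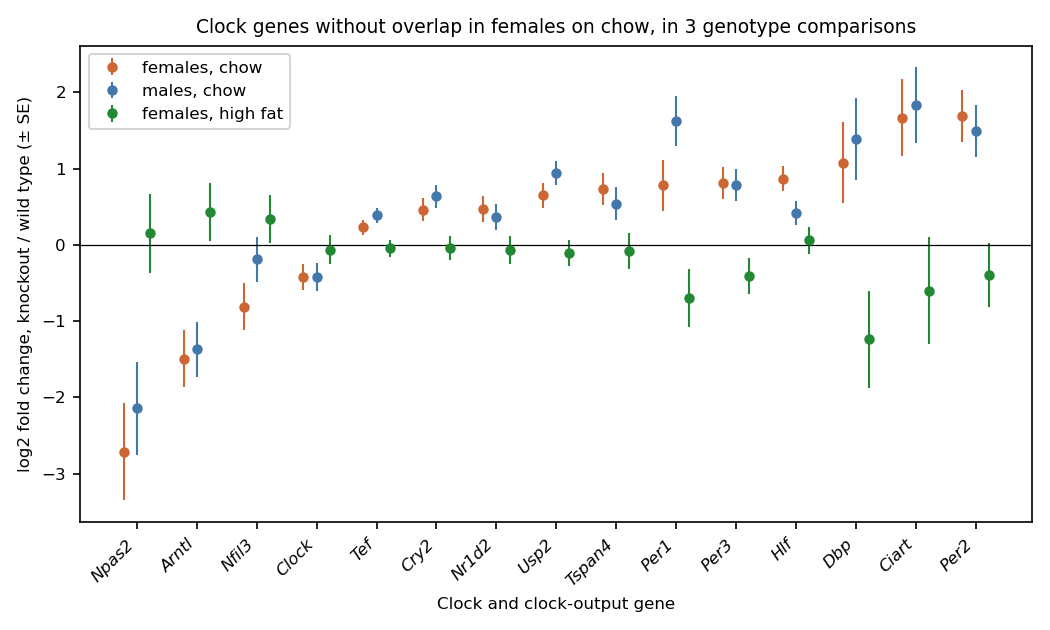
Log2 fold change, knockout over wild type, with its SE for the 15 clock and clock-output genes other than Tcap whose groups had no overlap in females on chow; orange is females on chow, blue males on chow and green females on high fat. The orange and blue points lie on the same side of 0 for every gene drawn, while the green points lie closer to 0 or on the other side. The genes were picked by the orange comparison, so smaller green values are partly set by that choice.

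Promoter sequence was read for the clock genes from RefSeq (GRCm38.p6, the build also called mm10), as 250 bases before the transcript start. Entries were found for 23 of the 29 clock genes, with 34 promoters in all. The E-box CACGTG, which BMAL1 and CLOCK bind, was present on either strand in 8 of the 34 (23.5%), from 7 genes, and in 6.02% of all 32851 promoters of this length. The D-box TTATGTAA, a PAR bZIP and NFIL3 motif, was present in 1 of the 34 (2.94%) and in 0.819% of all. The half-site AGGTCA of orphan nuclear receptors was present in 5 of the 34 (14.7%) and in 14% of all. The motifs do not overlap in the sequences shown, and a match is a description of letters, not of binding. Ciart (chr3:95882229-95882478, minus strand) is shown for its 3 E-boxes, Per1 (chr11:69098699-69098948, plus strand) for an E-box and a half-site on the other strand, Per3 (chr4:151044666-151044915, minus strand) for its 2 D-boxes, and the called gene Ppp1r3c (chr19:36736605-36736854, minus strand) for 1 E-box. Capitals mark the motifs.
Ciart: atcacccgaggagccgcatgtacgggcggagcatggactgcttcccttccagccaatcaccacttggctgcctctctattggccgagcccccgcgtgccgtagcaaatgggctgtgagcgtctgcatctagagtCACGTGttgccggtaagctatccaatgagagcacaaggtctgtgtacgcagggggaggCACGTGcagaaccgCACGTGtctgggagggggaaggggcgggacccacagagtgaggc
Per1: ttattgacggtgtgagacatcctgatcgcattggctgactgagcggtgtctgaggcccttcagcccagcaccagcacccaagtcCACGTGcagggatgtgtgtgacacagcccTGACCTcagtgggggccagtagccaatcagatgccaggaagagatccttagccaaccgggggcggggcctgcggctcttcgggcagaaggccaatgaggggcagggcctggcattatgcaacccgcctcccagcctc
Per3: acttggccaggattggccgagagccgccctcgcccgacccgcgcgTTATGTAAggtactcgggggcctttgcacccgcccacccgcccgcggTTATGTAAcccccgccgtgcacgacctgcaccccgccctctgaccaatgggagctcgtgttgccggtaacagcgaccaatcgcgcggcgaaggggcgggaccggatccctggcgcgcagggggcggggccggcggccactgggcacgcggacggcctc
Ppp1r3c: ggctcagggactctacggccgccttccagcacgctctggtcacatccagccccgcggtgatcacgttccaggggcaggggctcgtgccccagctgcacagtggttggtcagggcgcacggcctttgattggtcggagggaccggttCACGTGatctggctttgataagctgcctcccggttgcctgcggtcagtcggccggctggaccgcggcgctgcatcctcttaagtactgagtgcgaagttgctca
The E-boxes of Ciart begin 116, 58 and 44 bases before the transcript start, that of Per1 166 bases before it and that of Ppp1r3c 104 bases before it. Ciart and Per1 were higher without overlap in knockout and Ppp1r3c was lower. Of the other clock genes with this motif, Tef and Tspan4 were higher without overlap, and Cry1, Bhlhe41 and Pfkfb3 overlapped between the groups. Ppp1r3c was picked as a called gene from outside the clock lists. These genes therefore do not show how genes with this motif lay as a whole.

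Most glycolytic and fast-fibre genes had small negative values, with Ppp1r3c the only one called. Of 32 glycolysis and glycogen genes 1 was called lower, 7 were lower without overlap and 1 was higher without overlap, and 23 of the 32 had a negative value. Over all genes tested 0.0713% were called lower, 2.1% were lower without overlap and 2.25% were higher without overlap. The glycolysis and glycogen list had 13 genes at an unadjusted p under 0.05, where 4.86% of all genes were. Its median log2 fold change was -0.13. The summed level was 46141 to 53285 CPM in wild type and 42361 to 45904 CPM in knockout. Ldha, the lactate dehydrogenase A gene, stood at 2679, 3197, 2976 and 3639.9 CPM in wild type and at 2589.8, 2454, 2386 and 2373 CPM in knockout. It had no overlap, but the value of -0.35 ± 0.12 was not called (edgeR, adjusted p = 0.505). Tpi1 went from 2286 ± 325 to 1789.9 ± 63.2 CPM, Pkm from 3293 ± 290.4 to 2689.7 ± 153 CPM and Pgk1 from 836 ± 63 to 663 ± 36.6 CPM (SD, n = 4 each), also without a call. Ldha, Tpi1 and Pkm were chosen after their values were seen. Hk2, the hexokinase gene of insulin-responsive muscle, lay the other way, from 279 ± 42.4 to 355 ± 22.8 CPM (log2 0.34 ± 0.10, edgeR, adjusted p = 0.315).

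Of 15 fast-fibre contractile genes 0 were called by edgeR, limma voom or DESeq2, with 3 at an unadjusted p under 0.05. Their median log2 fold change was -0.17, 13 of the 15 were negative and 4 were lower without overlap, where 2.1% of all genes were. Pvalb, the calcium buffer parvalbumin of fast fibres, stood at 8198, 9444, 9552 and 11656 CPM in wild type and at 7292, 7106, 7910.4 and 7808 CPM in knockout. Mylpf, the fast regulatory myosin light chain gene, held 7196, 7941, 8176 and 9709 CPM in wild type and 6608, 6490.0, 6349 and 7008 CPM in knockout. Neither Pvalb (log2 -0.37 ± 0.16, edgeR, adjusted p = 0.968) nor Mylpf (log2 -0.32 ± 0.14, edgeR, adjusted p = 0.933) was called, and both sat without overlap. Of 15 slow-fibre genes 0 were called by edgeR or DESeq2, 0 had an unadjusted p under 0.05, 12 were positive, and 0 were without overlap. The median log2 fold change of the slow-fibre list was 0.17. In males on chow the medians were 0.22 for fast and 0.30 for slow genes, and in females on high fat 0.19 and -0.37.

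Among ubiquitin-system genes Trim63 alone was called. The 35 genes of the list of ubiquitin ligases had a median of 0.024. Of 34 proteasome subunit genes 0 were called by edgeR or DESeq2, 0 had an unadjusted p under 0.05, and 0 were without overlap, with a median of -0.01 and a range of -0.20 to 0.13. Of 25 autophagy and lysosome genes 0 were called by edgeR or DESeq2, 1 had an unadjusted p under 0.05 and 4 were higher without overlap, where 2.25% of all genes were, with a median of 0.035.

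Muscle-structure, signalling and lipid genes gave single members that edgeR did not call, 2 of which DESeq2 called, Mylk4 and Mid1ip1. Mylk4, a myosin light chain kinase family gene, stood at 1001, 1432, 1099.9 and 665 CPM in wild type and at 2213, 1874, 2132 and 1984 CPM in knockout. It had no overlap and narrowly missed the threshold (log2 0.97 ± 0.20, edgeR, adjusted p = 0.0506), and DESeq2 called it (adjusted p = 0.00259). Lmod2, an actin-filament nucleator gene of the sarcomere, ran from 81.4 to 144 CPM in wild type and from 144 to 213 CPM in knockout (edgeR, adjusted p = 0.439). Dusp14, a dual-specificity phosphatase gene, ran from 4.51 to 6.34 CPM and from 6.95 to 9.44 CPM (log2 0.65 ± 0.14, edgeR, adjusted p = 0.061). Mid1ip1, a partner of acetyl-CoA carboxylase in lipid synthesis, went from 11.5 ± 1.25 to 21.7 ± 3.81 CPM (SD, n = 4 each; edgeR, adjusted p = 0.189; DESeq2, adjusted p = 0.0362). Among 24 nerve-muscle junction genes 0 were called by edgeR or DESeq2, with 5 at an unadjusted p under 0.05. The acetylcholine receptor epsilon subunit gene Chrne went from 15 ± 3.29 to 9.9 ± 1.13 CPM (SD, n = 4 each; edgeR, adjusted p = 0.277).

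Medians of the matrix, fibro-adipogenic and macrophage lists were near 0 in these females, while those of the skin, adipocyte, red blood cell and Schwann lists were not. In bulk muscle, fewer cells of a type and less RNA per cell cannot be told apart. Of 21 collagen chain genes 0 were called by edgeR or DESeq2, with 1 at an unadjusted p under 0.05. Their median log2 fold change was -0.089. In males on chow 12 were called, where 6.95% of all genes were, and the median was -1.11. For 42 other matrix genes the medians were 0.0066 in females on chow and -0.90 in males on chow, for 16 fibro-adipogenic progenitor markers -0.028 and -0.81, and for 21 macrophage markers -0.082 and -1.03. Summed macrophage markers ran from 267 to 374 CPM in wild type and from 261 to 329 CPM in knockout. Col5a3, a fibrillar collagen chain gene, was lower without overlap, from 51.6 ± 14.2 to 28.6 ± 2.48 CPM (SD, n = 4 each; edgeR, adjusted p = 0.52). The skin and hair list had the highest median of these lists, sex-linked genes not counted, at 1.33, and its sum was 95.3 CPM in wild type 3, 99.6 and 156 CPM in knockouts 1 and 3, and 14.4 to 17.7 CPM in the other 5. Of 14 adipocyte markers all were positive, with a median of 0.38, 0 called by edgeR or DESeq2, 1 at an unadjusted p under 0.05, and sums of 477 to 701 CPM in wild type and 581 to 946 CPM in knockout. The red blood cell list had a median of -0.81, with 6 of 6 negative. Its sum was 1319.7 CPM in wild type 4 and 184 to 469.6 CPM in the other 7 libraries. The Schwann and myelin list had a median of -0.29, with 12 of 14 negative. Its sum was 479.8 CPM in wild type 3, 112 to 187 CPM in the other wild types and 143 to 231 CPM in knockout. Neither list had a member called by edgeR or DESeq2, and each had 1 at an unadjusted p under 0.05. Of 39 lists, sex-linked genes not counted, 34 had 0 members called by edgeR and 33 by DESeq2.

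**Figure D4:**
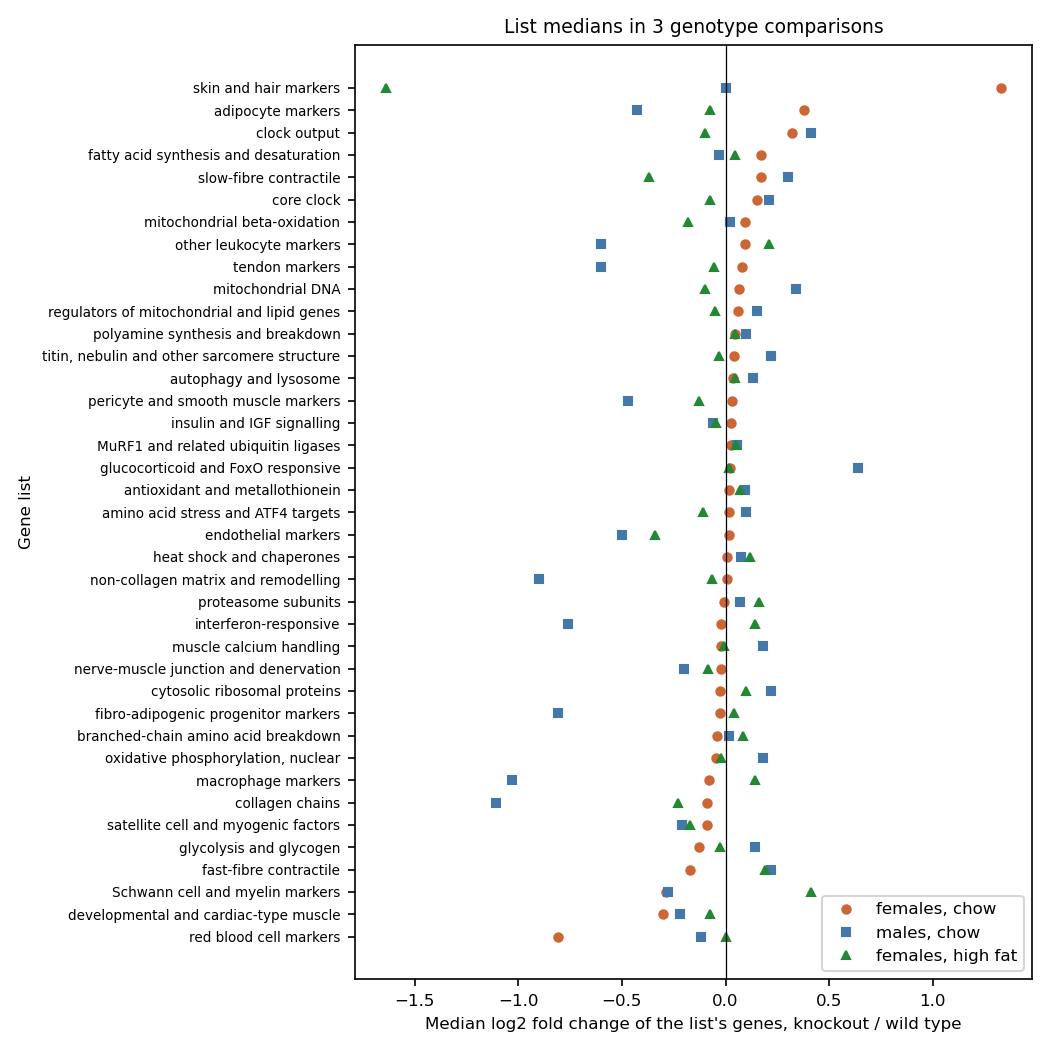
Median log2 fold change of each of the 39 gene lists for knockout over wild type; orange circles are females on chow, blue squares males on chow and green triangles females on high fat. Collagen, matrix, fibro-adipogenic and macrophage lists lie near 0 in females on chow and near -1 in males on chow, and the skin list stands apart in both female comparisons.

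The genotype effect was compared between the sexes on chow. It differed for 6 of the 14024 genes (0.0428%) by edgeR, and for 0 without knockout 3 (1359 at an unadjusted p under 0.05). Adgrb2 fell in females, while in males it was 0.227 ± 0.0144 CPM in wild type and 0.598 ± 0.199 CPM in knockout (SD, n = 4 each), and the difference of effects was -2.97 ± 0.56 (edgeR, adjusted p = 0.0276). Its male wild-type level lay around the value of 3 counts (0.201 to 0.321 CPM over all libraries), so this difference depends on few reads. Adgrb2 kept this call under 4 of 8 omissions of a library and Sp140, Zfp36 and Sertad4 under 7 (edgeR, highest adjusted p = 0.0743 and 0.0527 to 0.0583). Tmem173 and Fam111a kept it under 3 of 8 (edgeR, highest adjusted p = 0.1 and 0.161). The other 5 had overlapping groups in females on chow. Sp140, a nuclear-body gene of immune cells, was 1.1 ± 0.383 and 1.59 ± 0.268 CPM in females but 1.26 ± 0.233 and 0.248 ± 0.0681 CPM in males (SD, n = 4 each; difference 2.81 ± 0.47, edgeR, adjusted p = 0.0155). The male knockout level of Sp140 also lay around the value of 3 counts. Zfp36, which encodes the mRNA-decay factor tristetraprolin, was 17.5 ± 2.48 and 14.2 ± 0.861 CPM in females and 13.8 ± 4.31 and 37.2 ± 11.5 CPM in males (SD, n = 4 each; difference -1.73 ± 0.30, edgeR, adjusted p = 0.0194). Hdac1 fell in both sexes, by 0.69 in females and by 1.48 in males on the log2 scale, and the difference of 0.79 ± 0.20 was not called (edgeR, adjusted p = 0.0948). Of the 13 called genes 8 were also called in males on chow, where 6.95% of all genes were, and 5 in females on high fat, where 0.0713% were.

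The genotype effect differed between diets in females for 2 genes (0.0143%) by edgeR, Ppp1r3c and Leo1. Both were called under 1 of 8 omissions of a library, that of wild type 1 (edgeR, highest adjusted p = 0.142). Leo1, which encodes a subunit of the PAF1 transcription complex, stood at 24.3, 26.3, 26.8 and 27.8 CPM in wild type and at 19.9, 20.4, 19.1 and 19 CPM in knockout on chow. On high fat it was 24.2 ± 2.3 CPM (SD, n = 4) in wild type and 33.3 ± 4.54 CPM (SD, n = 3) in knockout. The groups had no overlap on chow, and the difference of effects was -0.88 ± 0.16 (edgeR, adjusted p = 0.0482). Of the 9 called chromosome 4 genes, 9 had negative values in females on high fat and 8 in males on chow, with Adgrb2 the exception.

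Wild type replicate 1 stood apart at several of these genes. Rab6b, a Golgi trafficking gene of chromosome 9, held 1.35, 10.7, 17.8 and 16.6 CPM in wild type and 1.24, 1.05, 0.705 and 1.35 CPM in knockout. Wild type 1 was thus at the knockout level, and the value was -3.40 ± 0.73 with all libraries (edgeR, adjusted p = 0.0814) and -3.77 without wild type 1 (edgeR, adjusted p = 0.00715). Other genes chosen after their values were seen followed the same order. Zfp992, a zinc finger gene of chromosome 4, held 2.35, 0.222, 0.202 and 0.479 CPM in wild type and 3.49, 2.03, 4.51 and 4.05 CPM in knockout. Rbp7, a retinoid-binding protein gene of chromosome 4, held 3.42, 0.296, 0.873 and 0.574 CPM in wild type and 5.73, 2.78, 4.37 and 4.18 CPM in knockout. Wild type 1 overlapped the knockouts at Zfp992 and Rbp7 and lay below them at Eno1b (8.55 CPM against 11.1 to 14.5 CPM), a near copy of Eno1. BC002163 and Ndufs5 in wild type 1 lay with the other wild types. Without wild type 1, 45 genes were called, the 13 among them.

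**Figure D5:**
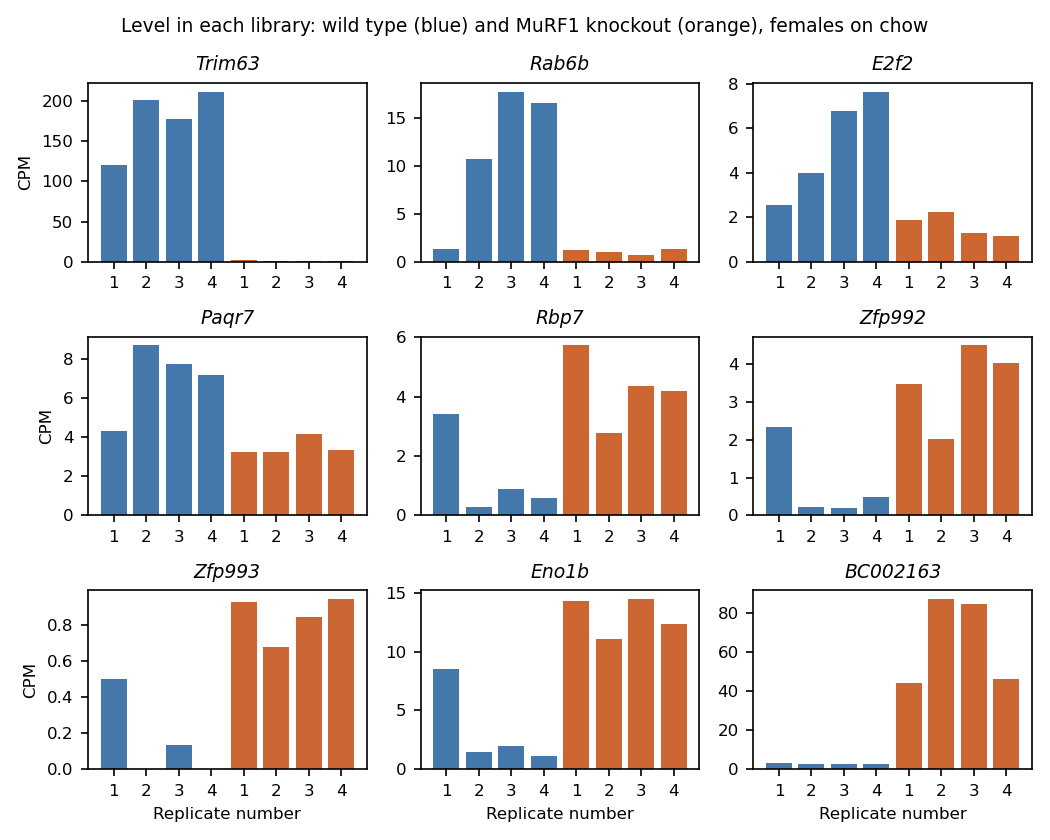
CPM of 9 genes in each of the 8 libraries, with bars from 0; blue bars are wild type replicates 1 to 4 and orange bars are MuRF1 knockout replicates 1 to 4. Wild type replicate 1 is the lowest blue bar for Trim63, Rab6b, E2f2 and Paqr7 and the highest for Rbp7, Zfp992, Zfp993, Eno1b and BC002163.

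Of the 13 calls, 11 were lost on leaving out at least 1 library. Trim63 and Hmgn2 were called under all 8 omissions of 1 library. Ndufs5 was lost without knockout 2 or 3 (edgeR, highest adjusted p = 0.0738), E2f2 without wild type 3 or knockout 3 or 4 (0.0616), and Hlf without wild type 2 or 4 or knockout 3 (0.0616). Xlr3a was lost without wild type 2 or 3 or knockout 1 or 4 (edgeR, highest adjusted p = 0.0835), and Ppp1r3c without wild type 2 or knockout 1, 2 or 3 (0.0908). Adgrb2 and Hdac1 were lost without wild type 2 or 3 or knockout 1, 2 or 3, Nipal3 without wild type 2 or 4 or any 1 knockout, and Pafah2 without wild type 2 or 3 or any 1 knockout. Paqr7 and Per2 held only without wild type 1. Without wild type 4, whose title names another group, the adjusted p of edgeR was 0.0607 for Hlf, 0.155 for Paqr7 and 0.242 for Nipal3 and Per2. Without knockout 4, whose title does too, it was 0.059 for E2f2, 0.0617 for Xlr3a, 0.0756 for Nipal3 and Pafah2, 0.0898 for Per2 and 0.176 for Paqr7. The count of calls was lowest without knockout 3, at 3. Without the 3 libraries with skin markers Trim63 was the 1 gene called, and without the 2 libraries high in S100a8 and S100a9 the 2 called were Trim63 and Hmgn2.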

How the data were processed

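The values are raw read counts per Ensembl gene, 1 file per library with 39017 identifiers, as the authors deposited them. Reads went through bcl2fastq and featureCounts on mm10, per the submitters' processing notes. The sources used here name no aligner, annotation release or strand setting. Per the labels' protocols, polyA RNA with an integrity number above 8 was sequenced with a stranded kit and 150 bp paired-end reads. GENCODE M21 gave symbols and positions for 37693 identifiers. The rest took up 0.107% of all counts.

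The members, the 40 gene lists (844 genes) and the rules were chosen with earlier results of these data known. Main tests were quasi-likelihood tests in edgeR 4.0.16 under R 4.3.3 (TMM scaling, filterByExpr with a minimum count of 10, robust dispersion) in a fit of 30 libraries in 8 groups, with Benjamini-Hochberg adjustment over 14024 genes at 0.05. The common dispersion of 0.0202 is a variation of 14.2% between animals. Log2 fold changes carry their SE after ±, and CPM of single libraries are scaled by TMM. The same test compared genotype effects between sexes and diets. Each library has its own animal number in the labels and was counted as 1 animal. No pair in either group was identical, and the lowest chi-square per gene was 4.65. Named genes were Trim63, the called genes, the 10 smallest p within 25 Mb of Trim63 and the 10 on other chromosomes, up to 4 per list and up to 5 per interaction. Genes with clone names were passed over, and some named genes are not printed. Genes added after their values were seen are marked where they are not clock genes, and Per1, Cry2, Nr1d2, Ciart, Clock, Dbp, Tef, Tspan4, Eno1, Fam111a, Fbxo44 and Zfp993 were also added this way. Simulated counts for 13792 genes, used to check the fit, gave 4 false calls. Near copies were found with BLAST 2.17.0 at 95% identity over 200 bases. Alternatives were DESeq2 1.42.0, limma 3.58.1 voom, other scalings, filters and groupings, and omissions. The value of 3 counts in CPM covers counting error only, while SD and SE include the spread between animals.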

Additional observations from a re-analysis of the deposited data

Results flagged for a closer look

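Within a group of 4 libraries, a library was marked when its gap to the nearest other took up more of the group's range than Dixon's 95% critical value allows, for the genes named here and 2 library measures. Of 156 such sets 12 were marked. Chance marks about 5% of sets, but some of these genes were chosen after their values were seen, so the count measures no excess over it. Wild type replicate 1 was marked 6 times. It was high for Zfp992 at 2.35 CPM (the other wild types 0.202 to 0.479 CPM), for Zfp990 at 0.57 CPM (the others listed at 0), for Eno1b at 8.55 CPM (1.15 to 1.95 CPM), for Usp2 at 124 CPM (94.5 to 96.2 CPM) and for Myot at 1224 CPM (851 to 894 CPM). It was low for Ache at 21.6 CPM (33.7 to 35.3 CPM). Wild type replicate 4 was low for Per2 at 3.25 CPM (7.13 to 7.59 CPM), high for Pgk1 at 929.7 CPM (796 to 811 CPM) and low in its total of 9981063 counts. Knockout replicate 2 held 3.83 CPM of the ubiquitin ligase subunit gene Fbxo44, against 0.155 to 0.405 CPM in the other knockouts and 4.28 to 5.44 CPM in wild type. Fbxo44 lies 13.83 Mb from Trim63, and without knockout 2 it was called (log2 -4.08, edgeR, adjusted p = 2.49e-06), against -2.12 with all libraries (edgeR, adjusted p = 0.151). Knockout replicate 3 was high for Paqr7 at 4.16 CPM (3.23 to 3.37 CPM), and knockout replicate 1 was low for Tspan4 at 9.92 CPM (11.7 to 12 CPM). The part of other cells or of library handling in these values was not tested.

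The genotype effect on chow differed between females and males, by edgeR's test of the difference, for Sp140 (2.81), Zfp36 (-1.73), Sertad4 (2.18), Adgrb2 (-2.97), Tmem173 (1.76) and Fam111a (1.91), as differences of log2 fold changes. The last 2 kept this call under 3 of 8 omissions of a library. Sertad4 was 4.48 ± 0.495 and 5.06 ± 0.806 CPM in female wild type and knockout and 3.57 ± 0.883 and 0.867 ± 0.44 CPM in males (SD, n = 4 each). Between diets in females the effect differed for Ppp1r3c (-1.35) and Leo1 (-0.88).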

How the results depend on the processing

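The 13 calls between the genotypes were 13, 12 and 13 under DESeq2 size factors, upper-quartile scaling and no filter, 11 with a minimum of 30 counts, 16 without the robust option, 13 with limma voom (9 shared) and 13 without mitochondrial genes. They moved to 32 with DESeq2, which held all 13, to 7 (6 shared) over libraries whose title and animal agree, to 3 without genes within 25 Mb of Trim63, to 36 (9 shared) in a fit of the 8 libraries alone, to 1 without the 3 libraries with skin markers and to 2 without the 2 libraries high in S100a8 and S100a9, the last 2 settings being chosen after seeing the data. Grouping by own titles gave 0 in edgeR, with 600 at an unadjusted p under 0.05. Replicate numbers pair nothing in the labels, and the correlations of deviations for the same number were -0.06, 0.21, 0.47 and 0.04, with not every library correlating best with its own number. The fit with the replicate block called 110 genes, 12 of them shared. Leaving out 1 library gave 3 to 45 genes. The 6 calls between sexes were 110 in DESeq2, 11 with no filter, 16 by own title, 0 and 0 without the skin and the S100a8 libraries (edgeR, 1261 and 1277 at an unadjusted p under 0.05), and 0 to 28 on leaving out 1 library. The 2 calls between diets were 18 in DESeq2, 0 with no filter, without the robust option, by own title, where title and animal agree, with limma voom, and without the skin or the S100a8 libraries (edgeR, 458 to 1451 at an unadjusted p under 0.05), and 0 to 6 on leaving out 1 library. Of 1718 named-gene values under 23 settings 9 reversed, each under grouping by own titles, namely Mylk4 (-0.11), Tef (-0.013), Lmod2 (-0.024), Myot (-0.026), Tcap (-0.081), Mybph (0.15), Actc1 (0.47), Hk2 (-0.10) and Mid1ip1 (-0.26). The knockout minus wild type difference in total count ran from -582683 to 596081 on leaving out 1 library, with -582683 without wild type 4 and -162844 without knockout 4, and that in mitochondrial share from 0.17 to 1.06 percentage points. A count of 3, without TMM scaling, limits levels below 0.217 to 0.301 CPM.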
